A study of Mus musculus with 8 samples.

Results

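Fibroblasts of the neonatal mouse thymus are described here, as 235 cells of a 1-week thymus suspension that were chosen by their transcripts out of 9953 stromal cells sequenced at 2 ages. A cell was counted as a fibroblast when it held transcripts of at least 4 of the 6 genes Pdgfra, Col1a1, Col1a2, Col3a1, Dcn and Lum. These transcripts had to make up at least 0.3% of its unique molecular identifiers (UMIs, each standing for 1 captured RNA molecule) and to outnumber those of the epithelial genes Epcam, Krt8, Krt18 and Krt5. Fewer than 2 mesothelial genes (Msln, Upk3b, Lrrn4) and fewer than 2 mural genes (Rgs5, Notch3, Kcnj8) were allowed. The same rule found 1476 fibroblasts among the 16-week cells, and these served as the comparison.

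The study joined surface protein and mRNA measurements in single stromal cells of C57BL/6 thymi, and used mice of 1 and 16 weeks of age. Thymi were digested enzymatically, CD45+ haematopoietic cells were depleted, the remaining cells were stained with 27 reagents carrying DNA tags, and EpCAM1+ and EpCAM1- cells were sorted and recombined. The cells of each age came from 1 pool of animals, 6 thymi at 1 week and 3 thymi at 16 weeks, that was loaded on 2 wells, and the 2 libraries of an age are called wells because they hold no separate animals. No p-value is therefore given, and every comparison between ages is one between 2 pools.

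The 1-week wells gave 121 and 114 fibroblasts out of 3276 cells, and the 16-week wells gave 412 and 1064 out of 6677. Median depth per fibroblast was 9068 and 8312.5 UMIs in the younger wells, and 11107.5 and 9854 in the older ones. Summed over the fibroblasts of a well, 1886845 and 1785081 UMIs stood behind the 1-week values, and 4702189 and 10735617 behind the 16-week values. The share of fibroblasts in a well follows the sort and was not compared. 15 cell barcodes were shared between libraries, and 0 of them belonged to 1-week fibroblasts. The pools also differed in Y-linked transcripts, and the sex of the animals is not given in the sources used here. Ddx3y had 56 and 63 UMIs in the 1-week fibroblasts and 0 and 0 in the 16-week fibroblasts, at least 155-fold higher against a floor of 3 counts over both 16-week wells. Eif2s3y, Kdm5d and Uty had 11 to 17 UMIs in each 1-week well and 0 in each 16-week well. Xist, the transcript that coats the inactive X chromosome of females, stood at 777 and 848 counts per 1000000 counts (CPM) at 1 week and at 1036 and 1120 CPM at 16 weeks. Age and sex of the pools can therefore not be told apart in any difference below.

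Fibroblasts of the thymus build its capsule and septa and line vessels in the medulla. They secrete the extracellular matrix and supply growth factors to epithelial cells and developing thymocytes. In the neonatal period the organ still grows, and fetal and neonatal mesenchyme in many organs transcribes a set of imprinted genes, which are read from 1 parental copy and include regulators of growth such as Igf2, H19, Dlk1 and Cdkn1c. Some of these loci also host microRNAs, which bind target RNAs through their seed, bases 2 to 8.

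The 6 fibroblast genes made up a median of 2.80% of a cell's UMIs at 1 week and 1.90% at 16 weeks. The lowest member held 0.389%, and the highest of the 6 cells left out by the share alone held 0.285%. All 6 genes were detected in 171 of the 235 cells, and 4 of the 6 in 21 cells. The rule removed 88 cells of 1 week for mesothelial genes and 221 for mural genes. As a description of the genes that chose the cells, Col1a1 stood at 6682 and 6409 CPM at 1 week against 1409 and 1228 CPM at 16 weeks, and Col3a1 at 11308 and 9692 CPM against 2950 and 2734 CPM. Dcn (decorin) stood at 6989 and 6434 CPM against 13584 and 13563 CPM, and Pdgfra at 260 and 304 CPM against 495 and 429 CPM. Here and below, CPM values are UMIs summed over the fibroblasts of a well and scaled with the TMM factors of edgeR. UMIs are counts of molecules and are not divided by gene length.

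H19, Mest and Igf2, which are among the imprinted genes called below, host microRNAs, and the mature sequences are printed to show the seeds that these loci could deliver. H19 (chr7:142575529-142578143, minus strand, build mm10/GRCm38) contains Mir675, Mest contains Mir335 and Igf2 contains Mir483. Sequences are from RefSeq on GRCm38.p6, with the seed in capitals. The microRNAs themselves were not measured by this assay.
mmu-miR-675-5p: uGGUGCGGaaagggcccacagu
mmu-miR-675-3p: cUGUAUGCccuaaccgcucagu
mmu-miR-335-5p: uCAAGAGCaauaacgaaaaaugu
mmu-miR-335-3p: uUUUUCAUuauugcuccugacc
mmu-miR-483-5p: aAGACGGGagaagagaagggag
mmu-miR-483-3p: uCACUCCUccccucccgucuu
No seed was shared between these 6 sequences. miR-675-5p lies at chr7:142577112-142577133 on the minus strand and miR-675-3p at chr7:142577078-142577099. miR-335-5p lies at chr6:30741314-30741336 on the plus strand, and miR-483-5p at chr7:142654968-142654989 on the minus strand.

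To ask how the neonatal fibroblasts differed from those of the adult organ, 11424 genes with a mean of at least 5 CPM over the 4 wells were compared. A gene was called when both wells of 1 age lay above both wells of the other and the means differed at least 2-fold. By this rule 589 genes were higher at 1 week (5.16% of those compared) and 906 were lower (7.93%). Lying apart alone was common, since the wells of the 2 ages did not overlap for 7531 genes (65.9%). The median log2 ratio over all compared genes was -0.09.

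**Figure D1:**
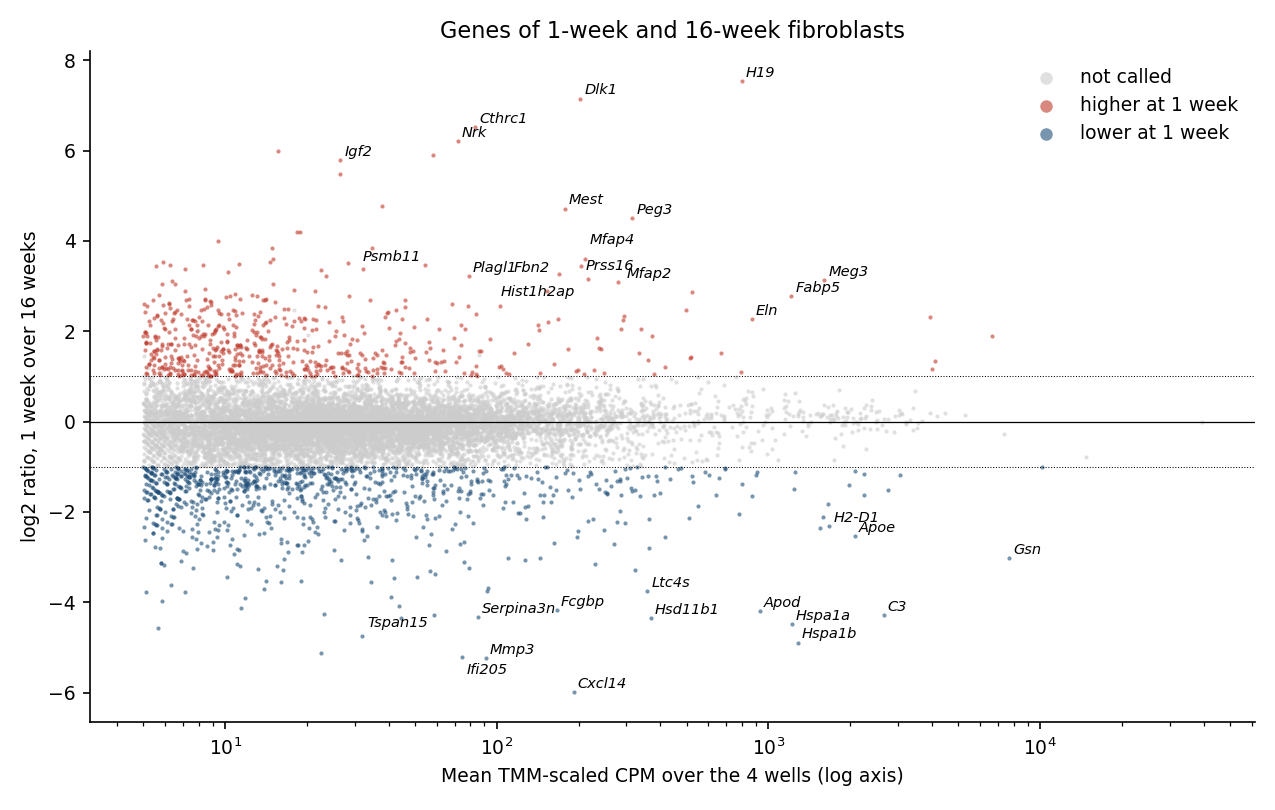
Each point is 1 of 11424 genes, with the mean TMM-scaled CPM over the 4 wells on the log x axis and the log2 ratio of 1 week over 16 weeks on the y axis. Red points are the 589 genes called higher at 1 week and blue points the 906 called lower. H19 and Dlk1 stand highest, at 7.53 and 7.15, and Cxcl14 lowest, at -5.98.

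Imprinted genes were mostly higher at 1 week. Of 22 measured imprinted genes, 15 (68.2%) were higher and 0 were lower, against 5.16% and 7.93% of all genes. Their median log2 ratio was 2.33 against -0.09 over all genes. H19, a long non-coding RNA that shares an enhancer region with Igf2, had 3128 and 2903 UMIs in the 1-week wells and 45 and 65 in the 16-week wells. This corresponded to 1629 and 1543 CPM at 1 week and to 9.81 and 6.33 CPM at 16 weeks. Both 1-week wells lay far above both 16-week wells, by 185-fold (log2 ratio 7.53, with a ratio of counts of 7.74 and a 95% counting interval of 7.47 to 8.03). Intervals of this kind cover counting error only.

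Dlk1, a transmembrane protein of the Delta family that restrains adipocyte differentiation (chr12:109452823-109463336, plus strand), stood at 409 and 397 CPM at 1 week and at 1.96 and 2.73 CPM at 16 weeks. The ages did not overlap and differed 142-fold (log2 ratio 7.15, counting interval 6.87 to 7.85). Igf2, the fetal insulin-like growth factor, had 100 UMIs in each 1-week well against 2 and 5 in the 16-week wells. It stood at 52.1 and 53.2 CPM against 0.436 and 0.487 CPM, with a counting interval of 5.73 to 8.14 for its log2 ratio of counts. The Igf2 count is uncertain, because 62.8% of its 5723 exon bases are shared on the same strand with the gene model Gm49394, to which 0 UMIs were assigned, and reads that cannot be placed in 1 gene may be missing.

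Paternally and maternally expressed loci were both among the genes called. Among paternally expressed genes, Mest stood at 421 and 266 CPM at 1 week and at 12.6 CPM in both 16-week wells (log2 ratio 4.71). Peg3, which encodes a zinc finger protein, stood at 688 and 520 CPM against 28.3 and 24.1 CPM (4.50), and Plagl1, a zinc finger factor linked to growth control, at 173 and 113 CPM against 15.9 and 13.8 CPM (3.22). In each of these genes the lower 1-week well lay above the higher 16-week well by several fold.

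Of the maternally expressed genes, the non-coding RNA Meg3 (chr12:109541001-109571726, plus strand) stood at 3160 and 2614 CPM at 1 week and 321 and 337 CPM at 16 weeks (log2 ratio 3.13). Rian and Mirg, which lie downstream in the same cluster on chromosome 12, differed by 2.89 and 2.40 on the log2 scale. Cdkn1c, an inhibitor of cyclin-dependent kinases, stood at 613 and 356 CPM against 102.3 and 99.2 CPM (2.26). Zim1 (4.76), Asb4 (2.26) and Grb10 (1.07) were called as well, as were the paternally expressed Peg10 (3.60) and Kcnq1ot1 (1.04). The wells of 1 week differed among themselves for Mest, Plagl1 and Cdkn1c, with well 1 higher each time, but neither well reached down to the 16-week range.

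The other 7 measured imprinted genes were not called. Ndn stood at 286 and 215 CPM at 1 week against 156 and 145 CPM (log2 ratio 0.73), and Gnas at 1429 and 1224 CPM against 970 and 946 CPM (0.47). Igf2r, the receptor that clears IGF2, stood at 218 and 190 CPM against 194 and 169 CPM (0.17), so its wells overlapped between the ages. Mcts2 (0.17), Impact (-0.31), Sgce (-0.43) and Snrpn (-0.49) made up the rest.

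**Figure D2:**
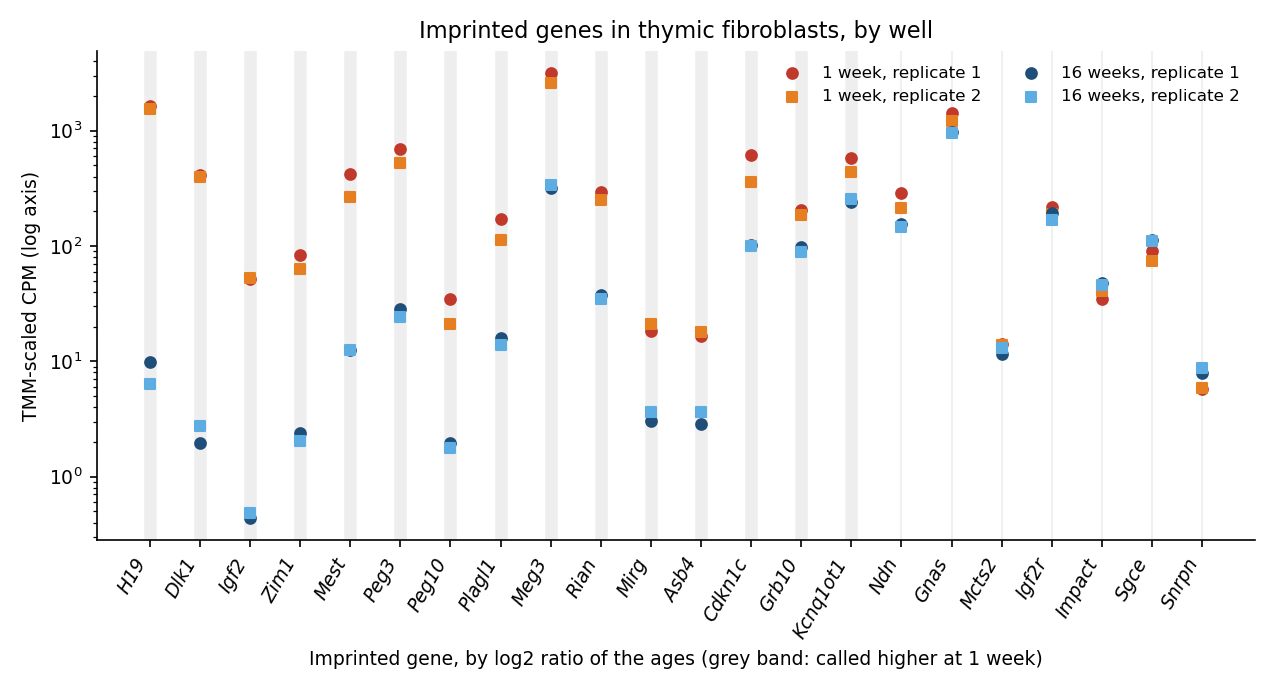
TMM-scaled CPM (log y axis) of each of the 22 measured imprinted genes in the fibroblasts of each well, ordered by the log2 ratio of the ages, with 1 point per well. Grey bands mark the 15 genes called higher at 1 week; H19, at 1629 and 1543 CPM against 9.81 and 6.33, stands at the left end.

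The label of these cells names H19, Dlk1 and Igf2 beside Pdgfra and Col1a1, and the detection of the 3 imprinted markers was therefore read per cell. After each cell was thinned to 2000 UMIs so that depths were equal, H19 was found in 66.1% and 51.8% of the fibroblasts of the 1-week wells and in 1.21% and 0.846% of those of the 16-week wells. Without thinning the shares were 84.3% and 76.3% against 4.37% and 2.44%. Epithelial cells, which served as the background, showed it in 10.7% and 11.2% of thinned cells at 1 week. Dlk1 was found in 33.1% and 34.2% of thinned 1-week fibroblasts and in 0.243% and 0.376% of those of 16 weeks, and in 3.31% and 3.32% of thinned 1-week epithelial cells. Igf2 was found in 28.9% and 31.6% of 1-week fibroblasts without thinning and in 2.48% and 7.89% after it, against 0.485% and 0.470% without thinning at 16 weeks, so that most of these cells showed no transcript of this marker. Meg3 was found in 86.8% of thinned fibroblasts of each 1-week well and in 32.3% and 29.5% at 16 weeks.

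Single cells varied widely. The median 1-week fibroblast held 5 H19 UMIs in well 1 and 2 in well 2, and the richest cells held 333 and 355. H19 and Dlk1 were detected together in 73 of 121 and 57 of 114 cells, and at least 1 of them in 107 and 97. H19, Dlk1 and Igf2 were all detected in 32 and 30 cells, and none of them in 14 and 17. Over the cells of a well, H19 and Dlk1 correlated at Spearman rho 0.392 and 0.408, and H19 and Dcn at 0.621 and 0.569. These values share the cells' depth, which correlated with H19 at 0.453 and 0.433, and are given as a description.

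The same loci were read in the other stromal classes for comparison. H19 was also higher at 1 week in mural cells (187 and 379 CPM against 5.67 and 1.39), in endothelial cells (347 and 177 CPM against 0 and 3.45) and in epithelial cells (38.4 and 30.3 CPM against 7.84 and 6.11). Of the 15 imprinted genes called in fibroblasts, 8 were also called higher in mural cells, 9 in endothelial cells and 5 in epithelial cells. Over all genes tested in those classes, 6.91%, 7.31% and 8.50% were called higher. Plagl1 was called in the opposite direction in epithelial cells, at 25.4 and 24.9 CPM against 81.0 and 78.5 CPM. Only 38 endothelial cells were found at 1 week, so their values rest on few molecules. H19 in 1-week epithelial cells amounted to 40.8 and 35.9 UMIs per 100 of Col1a2, against 26.3 and 28.0 in fibroblasts themselves, and the part of free RNA in the epithelial value was not separated further.

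Promoters of 3 of the called imprinted loci are printed to show the sequence these genes start from, as 250 bases upstream of a RefSeq start on GRCm38.p6. Capitals mark matches to 4 short motifs searched on both strands: the TATA box (TATAAA), the CCAAT box (CCAAT), the GC box (GGGCGG) and the palindromic cAMP response element (TGACGTCA). The Meg3 window is chr12:109540746-109540995 on the plus strand, the Mest window chr6:30737800-30738049 on the plus strand at 1 of its 3 listed starts, and the Peg3 window chr7:6730420-6730669 on the minus strand.
Meg3: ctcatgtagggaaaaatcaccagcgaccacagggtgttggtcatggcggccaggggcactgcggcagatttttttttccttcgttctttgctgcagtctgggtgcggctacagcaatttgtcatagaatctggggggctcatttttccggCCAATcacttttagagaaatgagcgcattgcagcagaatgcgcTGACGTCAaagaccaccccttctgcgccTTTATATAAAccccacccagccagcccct
Mest: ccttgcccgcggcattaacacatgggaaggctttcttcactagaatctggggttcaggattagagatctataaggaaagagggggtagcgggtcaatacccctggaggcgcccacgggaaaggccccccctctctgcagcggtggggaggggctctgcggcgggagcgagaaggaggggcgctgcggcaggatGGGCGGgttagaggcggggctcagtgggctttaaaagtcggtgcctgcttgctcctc
Peg3: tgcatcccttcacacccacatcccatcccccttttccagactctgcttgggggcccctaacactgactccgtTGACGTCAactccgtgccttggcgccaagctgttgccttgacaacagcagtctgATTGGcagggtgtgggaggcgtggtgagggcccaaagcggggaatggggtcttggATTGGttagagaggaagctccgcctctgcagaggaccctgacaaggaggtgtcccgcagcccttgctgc
Meg3 held a TATA box at base -25 that overlaps a match on the opposite strand at -29, a CCAAT box at -100 and a cAMP response element at -57. Mest held a GC box at -57. Peg3 held 2 CCAAT boxes on the opposite strand, at -124 and -69, and a cAMP response element at -178. Over all 32851 promoters of the table, a TATA box was present in 12.4%, a CCAAT box in 33.8%, a GC box in 32.7% and a cAMP response element in 1.55%. Counted per gene instead, 8684 genes tested in fibroblasts had a listed promoter. Of these, 7.89%, 40.3%, 66.0% and 3.16% held the motif in at least 1 promoter. Of the 12 called imprinted genes with a listed promoter, 1 held a TATA box, 6 a CCAAT box, 5 a GC box and 2 a cAMP response element. A match shows only that these letters occur in the window.

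Of 14 measured members of the insulin-like growth factor axis around Igf2, 2 (14.3%) were higher and 3 (21.4%) lower, against 5.16% and 7.93% of all genes, with a median log2 ratio of -0.11. Their summed level was 3942 and 4178 CPM at 1 week against 7411 and 7886 CPM. Besides Igf2, the binding protein Igfbp3 was higher, at 233 and 230 CPM against 54.5 and 49.3 CPM (log2 ratio 2.15). Igfbp6, which binds IGF2 preferentially, was lower at 155 and 167 CPM against 500 and 433 CPM (-1.53), and so was Igfbp7, at 1340 and 1510 CPM against 3671 and 4486 CPM (-1.52). Igf1, the postnatal ligand, was not called, at 351 and 227 CPM against 199 and 182 CPM. Among oncofetal growth regulators, of which 5 were measured, the RNA-binding proteins Igf2bp2 and Igf2bp3 were higher by 2.04 and 1.71 on the log2 scale.

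Collagens beyond those of the rule were higher or not called. Leaving out the 3 collagens of the rule, 6 of 19 measured collagens were higher at 1 week and 0 were lower. Over all genes 5.16% were higher and 7.93% lower, and the median log2 ratio of these collagens was 0.68. Col5a1, a chain of the fibril-nucleating collagen V, stood at 771 and 716 CPM against 310 and 253 CPM (1.40), and the fibril-associated Col14a1 and Col12a1 differed by 1.36 and 1.31. Col26a1 (2.42), Col8a2 (1.64) and Col18a1 (1.13) were also called. The collagen VI chain Col6a1, at 1452 and 1306 CPM against 1417 and 1428 CPM, overlapped between the ages. The collagen chaperone Serpinh1 was not called (0.05), and 3 of 25 genes of collagen processing were higher (P4ha3, P3h1 and Sparc).

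Elastic fibre genes were higher at 1 week in part of the group. Of 30 measured elastic and glycoprotein matrix genes, 8 (26.7%) were higher and 4 (13.3%) lower, against 5.16% and 7.93% of all genes. Eln, which encodes elastin itself, stood at 1287 and 1584 CPM against 344 and 255 CPM (log2 ratio 2.26). The microfibril genes Fbn2, at 301 and 315 CPM against 31.4 and 32.2 CPM (3.26), and Mfap2, at 484 and 519 CPM against 63.2 and 53.3 CPM (3.10), showed well values close together within an age. Mfap4, which binds elastic fibres, stood at 519 and 266 CPM against 37.7 and 26.1 CPM (3.60). Mfap5 (1.52), Fn1 (1.42), Vcan (1.14) and Fbln5 (1.08) were called too, whereas Fbn1, which encodes fibrillin 1, was not, at 1201 and 1185 CPM against 783 and 660 CPM (0.73).

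The 4 members that were lower at 1 week were Efemp1 (-2.15) and the latent TGF-beta binding proteins Ltbp1, Ltbp2 and Ltbp4. Ltbp1 stood at 90.6 and 90.4 CPM against 648 and 624 CPM (-2.81). The small leucine-rich proteoglycans, which decorate collagen fibrils, were lower in most cases: without Dcn and Lum of the rule, 5 of 7 were lower and 1 was higher, against 7.93% and 5.16% of all genes. Prelp stood at 63.6 and 93.6 CPM against 408 and 431 CPM (-2.41), Bgn (biglycan) at 1011 and 1154 CPM against 2767 and 2992 CPM (-1.41), and Aspn (asporin) was the member that was higher, at 254 and 208 CPM against 111 and 79.7 CPM (1.27). Of 20 measured matrix proteases and inhibitors, 5 were lower and 1 was higher, where the shares of all genes were 7.93% and 5.16%. Mmp3 (stromelysin) was lower at 4.17 and 4.25 CPM against 159 and 197 CPM (-5.24), and Mmp16 was the member that was higher (2.30).

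A pair of further genes stood beside H19 and Dlk1 among the leading genes. Cthrc1, a secreted collagen triple helix protein, stood at 173 and 157 CPM at 1 week and at 0.872 and 1.75 CPM at 16 weeks (log2 ratio 6.51). Nrk, an X-linked kinase gene, stood at 142 and 142 CPM against 1.09 and 1.75 CPM (6.22). Neither overlapped between the ages.

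Proliferation genes were higher in the neonatal fibroblasts. Of 15 G2M phase genes, 13 (86.7%) were higher and 0 lower, against 5.16% and 7.93% of all genes, with a median log2 ratio of 2.24. Top2a, the topoisomerase of dividing cells, stood at 130 and 105 CPM against 25.7 and 11.98 CPM, and Mki67, which encodes Ki-67, at 88.6 and 68.6 CPM against 19.6 and 6.62 CPM. Of 14 S phase genes, 8 (57.1%) were higher and 0 lower, with a median of 1.33. Among them were Rrm2 (2.44) and Mcm5 (2.15), while Pcna was not called (0.34). Counted per cell after thinning to 2000 UMIs, at least 3 of the 15 G2M genes were found in 10 of 121 cells (8.26%, exact 95% binomial interval 4.03 to 14.7%) and in 8 of 114 cells (7.02%, 3.08 to 13.4%) at 1 week. At 16 weeks they were found in 3 of 412 (0.728%) and 1 of 1064 cells (0.0940%). The shares of the 1-week wells lay above both 16-week shares.

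**Figure D3:**
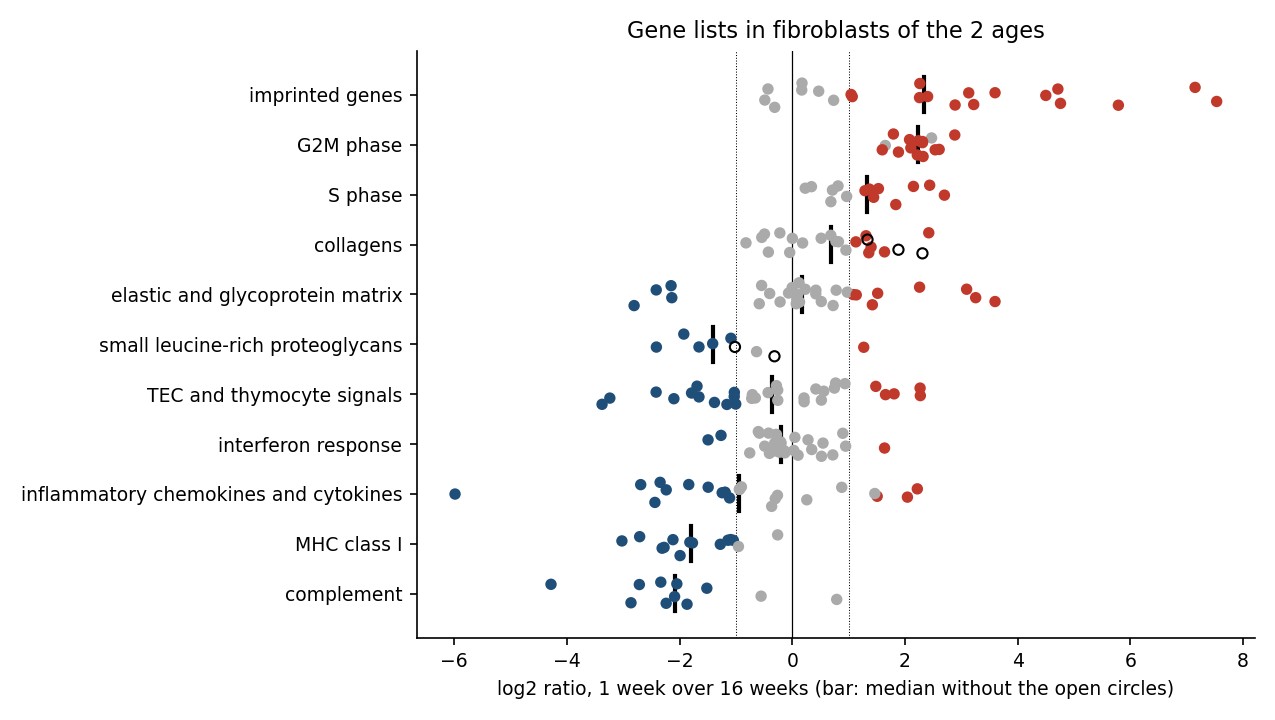
Log2 ratio of 1 week over 16 weeks (x axis) for the measured genes of 11 lists, with 1 point per gene. Open circles are fibroblast genes of the cell rule, and the bars give medians without them. Imprinted (median 2.33) and G2M genes (2.24) lie to the right of 0, and MHC class I (-1.79) and complement genes (-2.09) to the left.

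Most measured genes of the MHC class I and complement lists were lower at 1 week. Of 14 MHC class I genes, 12 (85.7%) were lower and 0 higher, against 7.93% and 5.16% of all genes, with a median log2 ratio of -1.79. H2-D1 stood at 510 and 612 CPM against 2644 and 2924 CPM (-2.31), H2-K1 at 528 and 660 CPM against 2372 and 2780 CPM (-2.12), and the light chain gene B2m at 652 and 807 CPM against 2662 and 2480 CPM (-1.82). The H2-Q and H2-T genes are near-identical copies that can share reads, so single members are uncertain. Nlrc5, the transactivator of MHC class I, was lower on few molecules, 9 UMIs at 1 week against 198 at 16 weeks.

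Of 11 measured complement genes, 9 (81.8%) were lower and 0 higher, against 7.93% and 5.16% of all genes, with a median of -2.09. C3, the central component, stood at 199 and 319 CPM against 5199 and 4895 CPM, which is 19.4-fold lower (-4.28). The alternative pathway gene Cfb (-2.86), the classical pathway genes C2 (-2.71) and C4b (-2.33), and the inhibitor Serping1 (-2.05) were lower as well. In each of these the 1-week wells lay below both 16-week wells. C3 was also lower at 1 week in epithelial (-4.25), mural (-4.44) and endothelial cells (-1.33).

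Inflammatory chemokines and cytokines split. Of 23 measured, 11 were lower and 3 were higher at 1 week, where 7.93% and 5.16% of all genes were. Cxcl14 stood at 9.38 and 1.59 CPM against 377 and 379 CPM, 63.3-fold lower (-5.98). Il33 (-1.11), Ccl11 (-1.19) and Ccl8 (-2.69) were lower too. Cxcl10, an interferon-inducible chemokine, was higher at 577 and 517 CPM against 123 and 142 CPM (2.04), as were the neutrophil chemokines Cxcl1 (1.51) and Cxcl5 (2.22). Of 28 interferon response genes, 1 was higher (Irf1, at 377 and 346 CPM against 113 and 118 CPM) and 2 were lower (Ifitm1 and Psmb8), shares of 3.57% and 7.14% that lay near the 5.16% and 7.93% of all genes.

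Of 32 measured factors that act on epithelial cells and thymocytes, 12 (37.5%) were lower and 5 (15.6%) higher at 1 week, against 7.93% and 5.16% of all genes, with a median of -0.35. Bmp2 stood at 8.86 and 11.2 CPM against 110 and 107 CPM (-3.37) and Bmp4, a factor for thymic epithelial identity, at 36.5 and 59.5 CPM against 159 and 174 CPM (-1.79). Flt3l, the ligand of early progenitors, stood at 15.6 and 13.8 CPM against 141 and 145 CPM (-3.24), and Ccl19, which guides thymocytes to the medulla, at 37.0 and 88.2 CPM against 310 and 363 CPM (-2.42). Tslp (-2.10), Hgf (-1.69), Il15, Gas6, Jag1, Dll1, Inhba and Ccl21a were also called lower. Ccl21a was at 141 and 414 CPM against 502 and 611 CPM and was lower in epithelial cells as well, which held it at 752 and 742 CPM against 5205 and 5184 CPM, and the part of epithelial RNA in its fibroblast value was not tested. Fgf7 (-0.65), Fgf10 (0.21), Kitl (-0.71), Il7 (0.52) and Cxcl12 (0.56), which signal to epithelium or thymocytes, were not called.

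Among the 5 that were higher, Rspo3, an amplifier of WNT signalling, stood at 65.6 and 41.5 CPM against 20.7 and 16.9 CPM (1.48), and Fgf18 at 21.4 and 13.8 CPM against 6.98 and 3.51 CPM (1.66). Ccl25 (2.27), Dll4 (1.81) and Wnt4 (2.27) are also transcripts of epithelial cells. Epithelial genes moved with them: Prss16, a protease of cortical epithelium, stood at 375 CPM in each 1-week well against 28.6 and 39.7 CPM in fibroblasts of 16 weeks, and Psmb11, the thymoproteasome subunit, at 101 and 99.9 CPM against 8.29 and 9.06 CPM. All 15 epithelial marker genes were detected in the 1-week fibroblasts, and their summed level was 4471 and 4889 CPM at 1 week against 3112 and 3976 CPM at 16 weeks. Of the 10 measured that the rule did not use, 3 were higher and 3 lower, against 5.16% and 7.93% of all genes. Psmb11 amounted to 26.8 and 26.6 UMIs per 100 of Prss16 in 1-week fibroblasts and to 25.01 and 25.9 in 1-week epithelial cells, and Ccl25 to 74.7 and 73.5 against 141 and 122. The part of epithelial RNA in the values of Ccl25, Dll4 and Wnt4 was not tested.

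Markers of other cell types were summed in the same way. The 8 mural markers summed to 326 and 323 CPM at 1 week against 413 and 455 CPM, the 10 endothelial markers to 72.4 and 174 CPM against 152 and 198 CPM, and the 15 thymocyte markers to 99.0 and 95.7 CPM against 74.1 and 59.6 CPM. The cell rule used 3 of the 8 mural markers to leave cells out, so the mural sum was limited in part by the selection. The 7 erythroid markers summed to 52.1 and 30.3 CPM against 29.0 and 37.5 CPM. At 1 week 4 of the 7 had UMIs, while Alas2 and Slc4a1 were at 0.

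Of 38 mesenchymal and positional transcription factors, 5 (13.2%) were higher at 1 week and 3 (7.89%) lower, against 5.16% and 7.93% of all genes, and their median of -0.09 was that of all genes. Pax1 stood at 76.1 and 69.1 CPM against 9.38 and 15.9 CPM (2.48), Hoxa5 at 21.4 and 30.3 CPM against 8.94 and 7.01 CPM (1.64), and Pax9 at 17.7 and 28.2 CPM against 8.504 and 8.77 CPM (1.36). Pax1 and Pax9 are also transcribed in thymic epithelium. Six2 (1.36) and Twist2 (1.31) were higher as well, while Meox1 (-1.63), Tcf21 (-1.28) and Nr2f1 (-1.24) were lower.

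Of 19 lipid and adipocyte genes, 6 (31.6%) were lower at 1 week, 2 (10.5%) were higher and 11 were not called, against 7.93% and 5.16% of all genes, with a median of -0.32. Among the lower genes, Apod, a lipocalin, stood at 95.8 and 95.2 CPM against 1662 and 1859 CPM (-4.20), Apoe at 662 and 558 CPM against 3610 and 3468 CPM (-2.54), and Hsd11b1, which is not in that list and regenerates active glucocorticoid, at 27.1 and 40.9 CPM against 684 and 723 CPM (-4.35). The fatty acid-binding protein gene Fabp5 was higher, at 2047 and 2190 CPM against 270 and 349 CPM (2.77). Fabp5 was also higher in epithelial cells (2.39), which held it at 12226 and 10836 CPM at 1 week. Gsn (gelsolin, an actin-severing protein), singled out after its values were seen, stood at 1817 and 1566 CPM against 14046 and 13346 CPM (-3.02).

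The heat shock genes Hspa1b, at 50.01 and 116 CPM against 2531 and 2429 CPM (-4.89), and Hspa1a, at 92.2 and 115 CPM against 2279 and 2390 CPM (-4.48), were among the genes lowest at 1 week. They are near-identical copies and can share reads. Both were lower at 1 week in epithelial, mural and endothelial cells too, by 2.30 to 4.46 on the log2 scale for Hspa1a. In the list of 24 measured immediate early and heat shock genes, 3 (12.5%) were lower and 4 (16.7%) higher at 1 week. Over all genes the shares were 7.93% and 5.16%, and the median log2 ratio of the list was 0.24. Of the immediate early genes, Fos was not called, at 3532 and 3076 CPM against 3026 and 2822 CPM.

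The 12 leading higher genes by log2 ratio, among those with a mean of at least 50 CPM, were H19, Dlk1, Cthrc1, Nrk, Mest, Peg3, Mfap4, Psmb11, Prss16, Fbn2, Plagl1 and the histone gene Hist1h2ap. The 12 leading lower genes were Cxcl14, Mmp3, Ifi205, Hspa1b, Hspa1a, Hsd11b1, Serpina3n, C3, Tspan15, Apod, Fcgbp and Ltc4s. Of the 12 leading higher genes, 9 were called higher in epithelial, 11 in mural and 11 in endothelial cells. Of the 12 leading lower genes, 11 were called lower in epithelial, 11 in mural and 8 in endothelial cells. Over all genes tested in these classes, 8.50%, 6.91% and 7.31% were called higher and 12.1%, 10.2% and 10.3% lower. The difference between classes was not tested, and free RNA was not removed from the counts.

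Depth and mitochondrial share separated the cells within each well, and the main differences were read in both fractions. Cells of at least 10000 UMIs made up 46.3% and 43.0% of the 1-week and 55.1% and 49.4% of the 16-week fibroblasts, and their median mitochondrial share was 1.31% and 1.45% at 1 week and 1.75% and 2.03% at 16 weeks. In the shallower cells it was 6.26% and 6.95% at 1 week and 3.44% and 3.46% at 16 weeks. The log2 ratio of H19 was 7.67 in deep and 6.52 in shallow cells, that of Dlk1 7.13 and 7.36, and that of C3 -4.31 and -4.07. In shallow cells Dlk1 rested on 96 and 90 UMIs against 0 and 5, so its ratio there is uncertain. The ratio of Igf2 was 6.21 in deep and 4.08 in shallow cells, where it rested on 6 and 12 UMIs against 1 and 2, and that of Mest was 5.04 and 3.05. Eln differed by 1.66 in deep and by 3.59 in shallow cells. The level of H19 at 1 week was 1883 and 1865 CPM in deep cells and 665 and 458 CPM in shallow cells, whereas Meg3 stood at 2463 and 1979 CPM in deep and at 5904 and 5181 CPM in shallow cells. Epithelial markers summed to 3597 and 4465 CPM in deep and to 7920 and 6838 CPM in shallow cells of 1 week.

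To see how the 1-week fibroblasts varied among themselves, the 235 cells were clustered, which gave 6 clusters of 66, 49, 38, 36, 31 and 15 cells. The number stayed at 6 with 30 neighbours, with 4000 variable genes and with marked doublets removed, but cells moved between clusters, with adjusted Rand indices (1 for identical groupings) of 0.761, 0.605 and 0.711. Each cluster drew on both wells, with shares of 28.1% and 28.1%, 19.01% and 22.8%, 14.9% and 17.5%, 14.9% and 15.8%, 16.5% and 9.65%, and 6.61% and 6.14%. The clusters were defined by their genes, so their levels are descriptions. They also followed depth: the median UMIs were 5076, 27336, 6321.5, 24506.5, 12959 and 11095, and the median mitochondrial shares 6.91%, 1.24%, 6.37%, 1.56%, 2.87% and 2.49%.

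Cluster 5 was capsular-type-like by its markers. Pi16, a peptidase inhibitor of adventitial fibroblasts, was detected in all of its 31 cells and stood at 2040 CPM, against 19.2 to 393 CPM in the other clusters. Dpp4 (220 CPM), Cd248 (686 CPM) and Sema3c (847 CPM) were highest there too, and the 12 capsular-type markers summed to 8173 CPM. Its other leading genes were Adamts16, Akr1c18, Lmntd1, Pcolce2 and Tek. H19 was highest in this cluster, at 3636 and 3360 CPM in the wells, and so was Igf2, at 121 CPM. Pi16 or Dpp4 was detected in 26.4% and 17.5% of thinned 1-week fibroblasts and in 24.03% and 18.98% of those of 16 weeks, and these shares overlapped between the ages.

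Of the 15 cells of cluster 6, 13 held at least 3 G2M genes after thinning, among 18 such cells in all, and the cluster was led by Esco2, Ckap2l, Cenpf, Hmmr, Knl1 and Sgo2a, genes of chromosome cohesion and the spindle. It held the lowest level of Meg3, at 979 and 680 CPM in the wells. H19 stood at 438 and 37.4 CPM in its wells, and in well 1 it was lower in cluster 1, at 272 CPM.

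Clusters 2 and 4 were the deepest and were left unnamed. Cluster 2 was led by Ecscr, Scml4, Ltc4s, Tmem26 and Agtr2, of which Agtr2 encodes an angiotensin receptor. Its medullary-type markers summed to 7880 CPM, of which Ptn (pleiotrophin) alone gave 6359 CPM. H19 stood at 1937 and 1888 CPM in its wells. Cluster 4 was led by Gatm, Fndc5, Apln, Fcor, Rspo1 and Hp, and Dlk1 was highest there, at 602 and 655 CPM. Gdf10, a secreted TGF-beta family member, stood at 370 CPM in cluster 4 and at 25.9 to 87.3 CPM in the others.

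Cluster 3 was led by Mical2, Ccn2, Eln, Crim1, Itga9 and Cklf. Elastin transcripts reached 6091 and 10025 CPM in its wells, against 159 to 2425 CPM in the wells of the other clusters, and Meg3 (6258 CPM) and Col1a1 (16214 and 16378 CPM in the wells) were highest there. Cluster 1 was led by Milr1, Carmn, Pde10a, Col6a4, Plxnb1 and the epithelial regulator Foxn1. The epithelial markers summed to 10503 CPM in cluster 1 and to 9358 CPM in cluster 3, against 2496 CPM in cluster 2, and both clusters had low depth and high mitochondrial shares. Clusters 1 and 3 were left unnamed.

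**Figure D4:**
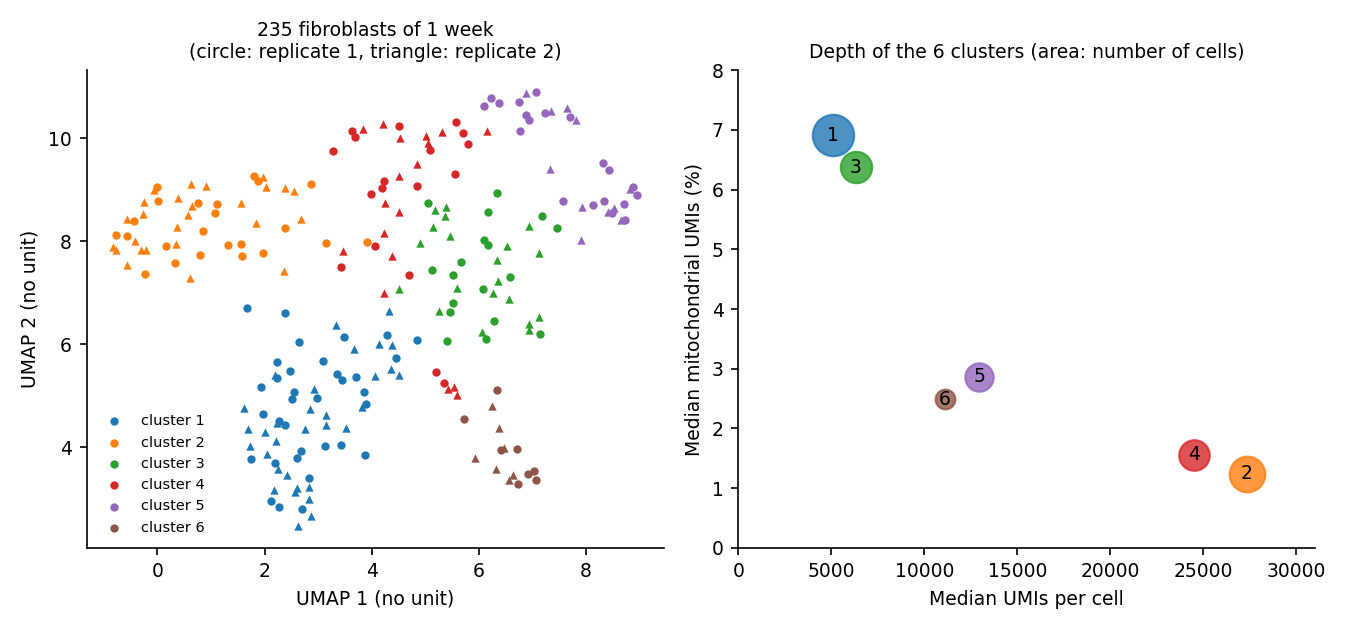
The left panel shows a UMAP of the 235 fibroblasts of 1 week (axes without unit) coloured by cluster, with circles for well 1 and triangles for well 2, and the right panel the median UMIs per cell (x axis) against the median mitochondrial share in percent (y axis) of each cluster, with the point area set by its number of cells. Clusters 2 and 4, at 27336 and 24506.5 UMIs, lie far from clusters 1 and 3, at 5076 and 6321.5 UMIs.

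Surface proteins were read through the tags, which the cell rule did not use. The counts of antibody-derived tags (ADT) in fibroblasts were low and uneven: the median cell held 157 and 172 at 1 week and 275.5 and 200.5 at 16 weeks, and the 10 richest cells held 70.9% and 81.9% of all fibroblast ADT counts of the 1-week wells. Over all fibroblasts, 4 of the 27 tags were higher at 1 week (14.8%) and 5 were lower (18.5%). Because of the rich cells, each tag was also read in the cells below 1000 ADT counts, an alternative chosen after the data were seen. The values below are from these cells, as counts per 10000 ADT counts. MHCII was the largest tag, at 3755 and 3898 at 1 week against 2606 and 2383 at 16 weeks. Every other value therefore depends on it, and the calls without MHCII and UEA1 are given in the last section. The DNA tags of the reagents the results turn on are printed in lower case to identify them, as the deposited table lists them.
Sca1: ttcctttcctacgca
CD54: ataaccgacacagtg
CD200: tcaattccggtagtc
CD40: atttgtatgctggag
Epcam: acccgcgttagtatg
MadCAM1: ttgggcgattaagaa
Sca1, a GPI-anchored protein of mesenchymal progenitors, was lower at 1 week, at 567 and 559 against 1387 and 1553 counts per 10000 (log2 ratio -1.38). In epithelial cells of the same ADT range it stood at 229 and 203 against 1178 and 1337, so that fibroblasts lay above them by 1.30 and 1.46 on the log2 scale at 1 week and by 0.23 and 0.22 at 16 weeks. Its transcript Ly6a was lower too, at 425 and 411 CPM against 1265 and 1370 CPM (-1.65). CD54 (ICAM-1) stood at 830 and 951 against 1777 and 1956 (-1.07) in these cells, but was not called over all fibroblasts (-0.61), and its transcript Icam1 was not called (0.24).

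Tags that were higher at 1 week included CD200, an inhibitory ligand, at 129 and 76.7 against 20.1 and 18.5 (2.35), and CD40, the TNF receptor family member, at 99.3 and 89.2 against 34.7 and 28.6 (1.54). Their transcripts Cd200 (0.54) and Cd40 (-0.69) were not called. The Epcam tag stood at 433 and 458 against 138 and 144 (1.66), and in epithelial cells of the same ADT range it stood at 535 and 566 at 1 week and at 346 and 374 at 16 weeks. Epcam transcripts in fibroblasts stood at 86.5 and 102.1 CPM against 58.6 and 72.9 CPM. In epithelial cells of that ADT range CD40 stood at 93.9 and 82.4 against 36.5 and 30.4, and fibroblasts differed from them there by 0.080, 0.11, -0.069 and -0.087 on the log2 scale in the wells of 1 and 16 weeks. CD200 stood there at 62.0 and 58.2 against 49.7 and 51.4. The part of background in these tag values was not tested. With a centred log ratio per cell, CD200 and CD40 were not called.

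MadCAM1, a vascular addressin, was among the tags that set fibroblasts apart from epithelial cells within a well, at 245 and 315 against 23.6 and 15.9 at 1 week. It was higher at 1 week than at 16 weeks (129 and 97.4) in these cells, but not over all fibroblasts (0.54). Its transcript Madcam1 was nearly absent, at 1.56 and 1.59 CPM. CD49a (integrin alpha 1) was also higher in fibroblasts than in epithelial cells, at 765 and 855 against 150 and 111. CD49a (-1.57) and CD9 (-2.49) were called lower over all fibroblasts, but not in the cells below 1000 ADT counts (-0.47 and -0.28). The transcript Cd9 was lower (-1.62).

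**Figure D5:**
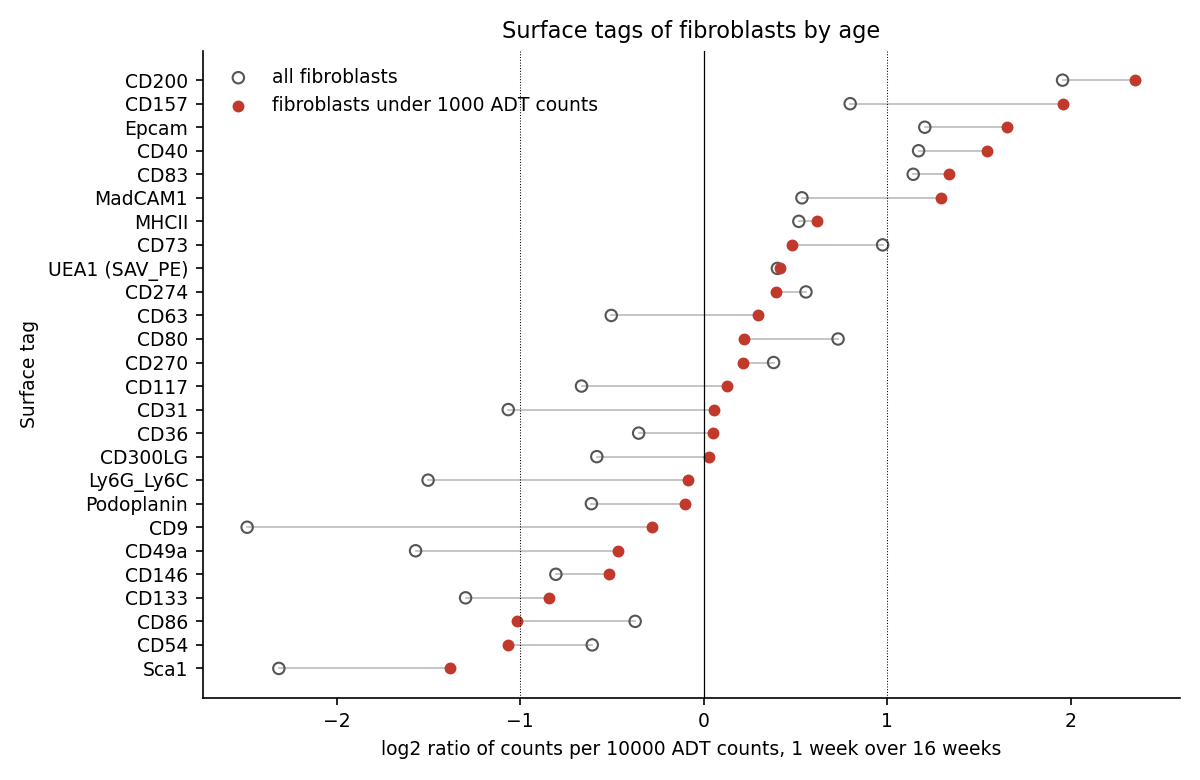
Log2 ratio of 1 week over 16 weeks (x axis) for 26 of the 27 surface tags, without Ly6D, which had almost no counts, over all fibroblasts (open circles) and in those below 1000 ADT counts (filled circles). Sca1 lies below 0 (-2.31 and -1.38) and CD200 above 0 (1.96 and 2.35) in both readings, while CD9 moves from -2.49 to -0.28.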

How the data were processed

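CITE-seq of thymic stromal cells gave 4 mRNA and 4 ADT libraries, 1 pair per well. According to the submitters' processing notes, the authors aligned reads to mm10 and counted UMIs with STARsolo 2.7.9a, and the deposited values are raw counts of UMIs per gene and of ADT per tag for each cell, not normalized. Every deposited cell held at least 2000 UMIs. The labels name a 3′ v2 kit and the study's methods a v3 kit. Rows covered 55487 gene identifiers, of which 260 had no symbol and held 0.0130% of the UMIs.

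Counts were summed per well and class and scaled with TMM (edgeR 4.0.16, R 4.3.3), with a pseudocount of 0.5 CPM. Cells were processed in Python 3.11.15. Counting intervals are exact Poisson-ratio and exact binomial intervals at 95%. Counts were also simulated for the comparison of 1-week with 16-week fibroblasts over 11323 genes, with Poisson counting error only. In them, 61 of 62 genes changed by 1.5 on the log2 scale were called, as were 43 of 43 at 2, 49 of 49 at 3 and 45 of 45 at 4, and 3 of 11124 unchanged genes. No spread between cells, wells or pools was simulated, so these counts cannot show how often genes are called between 2 pools without a change. Genes were named as cell rule genes, as the 12 leading genes per direction, as up to 10 called members of each of 32 lists or by their role, and as the 6 leading genes of a cluster, and some genes that these rules name are not reported here. The members and lists were chosen with earlier results of these data known. Clusters were found by the Leiden method (resolution 0.6, 15 neighbours, 2000 variable genes, 15 principal components, scanpy 1.11.5).

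Doublets were kept, because the automatic limit of the caller marked 14 cells in all. An alternative removed 253 cells at 0.8% per 1000 deposited cells of a library, of which 2 and 3 were 1-week and 12 and 65 were 16-week fibroblasts. A total of 477 cells met 2 class rules and entered no comparison class. Mural, epithelial and endothelial cells were found by rules of the same form.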

Additional observations from a re-analysis of the deposited data

Results flagged for a closer look

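Among 204 called genes of the lists and the leading genes, 17 had the opposite call in another stromal class. They were picked because both wells of an age moved one way in fibroblasts and the other way in that class, and the difference between the classes was not tested. Log2 ratios of 1 week over 16 weeks follow.

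Against epithelial cells, 7 genes stood in opposite directions. The angiotensinogen gene Agt stood at 3.32 in fibroblasts and at -1.65 in epithelial cells. The imprinted factor Plagl1 stood at 3.22 and -1.65, and Col14a1 at 1.36 and -1.02. Dkk3, which encodes a secreted glycoprotein of the Dickkopf family, stood at 1.02 and -2.89, and the myosin light chain gene Myl9 at 1.31 and -1.25. Inmt, a methyltransferase gene, stood at -3.88 and 2.68, and the nuclear receptor gene Nr2f1 at -1.24 and 1.46.

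Against endothelial cells, of which 38 were found at 1 week, 11 genes stood in opposite directions, all lower in fibroblasts and higher in endothelial cells of 1 week. Matrix and adhesion genes were Ltbp1, at -2.81 in fibroblasts and 1.17 in endothelial cells, Thbs4 at -1.74 and 3.61 (0.54 in fibroblasts under 10000 UMIs), and the protease gene Htra1 at -1.05 and 1.74. Protease inhibitors were Serping1, at -2.05 and 1.05, and Serpine2, at -1.16 and 1.75. Cytokine genes were Il33, at -1.11 and 2.22, Il34 at -1.49 and 1.33, and Inhba, which encodes an activin subunit, at -1.65 and 1.70. The WNT antagonist gene Dkk2 stood at -1.21 and 3.45, the Notch ligand gene Jag1 at -1.03 and 1.28, and Nr2f1 at -1.24 and 1.33.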

How the results depend on the processing

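No paired analysis was possible because no result comes from a test, and the library numbers name wells within 1 age. Of 204 called genes, 200 kept their direction and 109 their call under all 17 settings, and 169 kept it when each well was left out. Against 589 higher and 906 lower genes, 1566 and 2208 were called with no filter, 213 and 419 at a minimum of 20 CPM, 1028 and 1448 in cells under 10000 UMIs, and 889 and 1538 with cells thinned to 2000 UMIs. Leaving out 1 well gave 561 to 684 higher and 841 to 1130 lower genes. Counting the 3 rule genes, 9 collagens were higher, and 15 in cells under 10000 UMIs. At 20 CPM, 7 G2M and 2 S phase genes were higher, and 5 to 11 S phase genes without 1 well, the lowest without 1-week well 2. The imprinted median ranged from 2.13 to 2.94.

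The cycling share over both wells was 7.66% at 1 week and 0.271% at 16 weeks. It was 16.6% and 1.56% with at least 2 genes, and 42.1% and 2.78% without thinning. S phase genes gave 5.96% and 1.02%, and 1 well of 16 weeks alone gave 0.0940% to 0.728%. A centred log ratio called 1 tag higher and 3 lower, and leaving out MHCII and UEA1 called 12 and 2. Cells under 1000 ADT counts called 6 higher and 3 lower, and per-cell shares 4 and 3, against 4 and 5. Log2 ratios changed sign for Kcnj8 under 10000 UMIs (-0.78) and thinned (-0.076), for Lif (0.38) and Thbs4 (0.54) under 10000 UMIs, and for Mcam (-0.55) in cells with Pi16 or Dpp4. The cause was not tested. Thinning, the depth classes, the Pi16 or Dpp4 classes and the ADT limit and per-cell shares were chosen after seeing the data.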
